A study of Mus musculus with 6 samples.

Results

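The genes that build, desaturate and elongate fatty acids were followed in BV2 cells, a mouse microglial line that grows without limit in culture. They are Acaca, Fasn, Scd1, Scd2, Fads1, Fads2, Elovl1, Elovl5, Elovl6 and the regulator Srebf1, which are 10 of the 46095 genes in the count table. The members were taken by symbol, and the set was chosen from its measured difference between the same 6 libraries, so the counts, log2 fold changes and group overlaps of the 10 genes are given as a description without a test. Total RNA was sequenced from 3 wells of untreated cells (CON group) and from 3 wells kept for 6 h with recombinant sTREM-1 (1 μg/mL). sTREM-1 is the soluble form of the receptor TREM-1. The labels give the same line for both groups and name no engineered allele. They do not say whether the CON wells received a vehicle, and a single line stands here for microglia. Separate wells of 1 line are the replicates, so the p-values printed for other genes measure the spread between wells, which may be technical.

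Fatty acid synthesis starts in the cytosol, where acetyl-CoA carboxylase (Acaca) makes malonyl-CoA and fatty acid synthase (Fasn) assembles it into palmitate. Elongases of the endoplasmic reticulum add carbons to saturated and unsaturated chains, stearoyl-CoA desaturases (Scd1, Scd2) place the first double bond to make monounsaturated fatty acids, and the desaturases Fads1 and Fads2 make long polyunsaturated fatty acids from dietary precursors. SREBP-1, the product of Srebf1, is a membrane-bound transcription factor that switches on most of these genes after it is cut and enters the nucleus. In microglia and macrophages these pathways supply membrane lipids and precursors of lipid mediators.

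The libraries held 40070633 to 45877107 counts. A floor of 3 counts corresponded to 0.0654 to 0.0749 CPM, a limit that covers counting error only. CPM stands for the count scaled to a common library total after TMM normalization, and log2 fold changes are sTREM-1 against CON. A gene was called when its edgeR adjusted p was under 0.05. Of the 14120 genes with enough counts to test, 30.5% were called, 16.5% as higher and 14.1% as lower, and 21.3% had every sTREM-1 library above every CON library. Most of these differences were small, with a median fold change of 1.155 among called genes, and only 0.921% of tested genes were called with a rise of at least 1.5-fold. Of the microglial markers, Csf1r, Itgam, Ptprc, Cd68 and Tyrobp had at least 293 CPM in both group means. Tmem119 (1.47 and 1.45 CPM), P2ry12 (0.668 and 1.13 CPM) and Cx3cr1 (0.945 and 1.77 CPM) were near 1 CPM. These CPM values are not scaled by length. Summed over 12 microglial markers the level ran from 2640 to 2680 CPM in the CON group and from 2910 to 2980 CPM after sTREM-1, with 4 of 11 tested markers called higher (Csf1r, Cx3cr1, Ptprc and Trem2). Csf1r, the receptor that keeps microglia alive, went from 521 to 753 CPM (log2 fold change 0.53, edgeR adjusted p = 2.9e-17). The part of this marker shift in the results below was not tested.

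Of the 10 genes, 8 passed the filter on low counts, and the other 2, Scd1 and Fads2, did not. The log2 fold changes of all 8 were positive. Their median was 0.21, against a median of -0.00168 over all tested genes. By the rule used for all genes 6 of the 8 were called, each as higher, and Scd2 alone was also at least 1.5-fold higher. The set was chosen on this contrast, so nothing is read from these counts against the background shares. In the same 6 genes (Fasn, Scd2, Fads1, Elovl5, Elovl6 and Srebf1) no sTREM-1 library overlapped a CON library. Only Scd2 and Srebf1 lay above 0.42, the 95th percentile of log2 fold changes over all tested genes. RNA was taken from whole wells, in which more RNA per cell and more cells of a high-expressing state cannot be told apart.

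**Figure D1:**
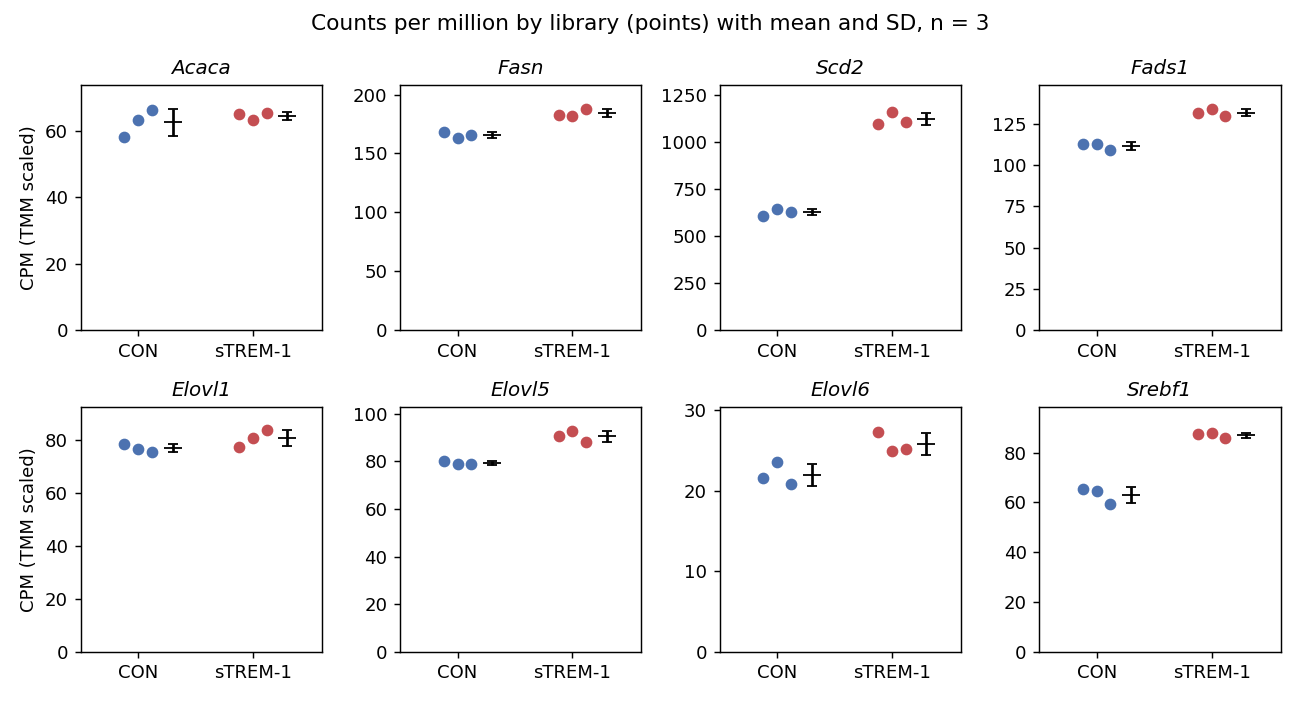
CPM (linear axes from 0) of the 8 tested genes in each CON (blue) and sTREM-1 (red) library, with the mean and SD of each group (n = 3) beside the points. The groups are apart in 6 panels and overlap in Acaca and Elovl1, and Scd2 runs from 610 to 646 CPM in the CON group and from 1100 to 1160 CPM after sTREM-1.

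At the entry of the pathway the groups overlapped in the carboxylase gene and were apart in the synthase gene. The fold changes of these genes were not compared with each other in a test. Acaca, on chromosome 11 from 84129672 to 84401651 (GRCm38, plus strand), had 58.3, 63.3 and 66.4 CPM in the CON group and 65.1, 63.2 and 65.5 CPM after sTREM-1. The sTREM-1 libraries lay inside the CON range, and the log2 fold change was 0.04 (standard error 0.04). Acaca is also the member with the most shared sequence, since 42.8% of the 100-base windows of its longest transcript occur in the pseudogene Gm5182, which had 387 to 518 counts per library. Reads could have been divided between them in the counting. With the Gm5182 counts added, an alternative chosen after seeing the data, the log2 fold change was 0.02. Without CON replicate 1, the lowest CON library, the log2 fold change of Acaca alone was -0.01, and without CON replicate 3, the highest, it was 0.085.

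Fasn, which carries out every later step of palmitate synthesis in 1 protein, had 168, 163 and 166 CPM in the CON group and 183, 182 and 188 CPM after sTREM-1. It lies on chromosome 11 from 120805846 to 120824547 on the minus strand. The groups were apart, with the lowest sTREM-1 library 1.08-fold above the highest CON library. The mean moved from 166 ± 2.57 to 184 ± 3.38 CPM (SD, n = 3), a log2 fold change of 0.15 (standard error 0.03). No 50-base window of its longest transcript occurs in another gene.

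Scd2 had the largest difference of the 8 tested members. This stearoyl-CoA desaturase is on chromosome 19 from 44293674 to 44306864 (plus strand) and is the form known to prevail in brain. Its counts were 24960, 26515 and 25780 in the CON group and 50222, 49372 and 44225 after sTREM-1, or 610, 646 and 631 CPM against 1100, 1160 and 1110 CPM. Every sTREM-1 library was at least 1.70-fold above every CON library. The mean moved from 629 ± 18.5 to 1120 ± 30.6 CPM (SD, n = 3), and the log2 fold change was 0.84 (standard error 0.02), a 1.79-fold difference. Among all tested genes Scd2 stood at rank 131 by log2 fold change. When each library was left out in turn its log2 fold change stayed between 0.81 and 0.86.

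The other stearoyl-CoA desaturases were at or near the detection floor. Scd1, the main form in liver and fat and the neighbour of Scd2 on chromosome 19 (44394455 to 44407879, minus strand), had 7, 3 and 2 counts in the CON group and 10, 10 and 7 after sTREM-1. No fold change is given for counts this low. Of all counts of Scd1, Scd2, Scd3 and Scd4 together, Scd2 held between 99.94% and 99.977% in each of the 6 libraries, with a lowest 95% Wilson bound of 99.901%, an interval that covers counting error only and takes each read as independent. In 4.66% of the 50-base windows of Scd1 and 4.01% of those of Scd2 the sequence occurs in another gene, mostly another Scd gene, so the few reads of Scd1 cannot be assigned with certainty. These shares are of counts as deposited and are not scaled by length.

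Among the desaturases of polyunsaturated fatty acids, Fads1 was well expressed and Fads2 was listed at 0. Fads1, the delta-5 desaturase (chromosome 19, 10182888 to 10196877, plus strand), had 113, 113 and 109 CPM in the CON group and 132, 134 and 130 CPM after sTREM-1. The groups were apart by 1.15-fold at their nearest libraries, with means of 111 ± 2.37 and 132 ± 2.25 CPM (SD, n = 3) and a log2 fold change of 0.25 (standard error 0.03). Fads2, the delta-6 desaturase that acts before Fads1 in the same pathway, lies next to it (10062765 to 10101746, minus strand) and had 0 counts in all 6 libraries. Fads3, on the other side of Fads2, had 0 or 1 count per library, whereas Rab3il1 beyond it had 333 to 500 counts.

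A listed 0 in this table cannot be read as absent expression. From Csnk2b to Tnf in the major histocompatibility region of chromosome 17, all 10 protein-coding genes of the table were at 0 in every library, and these include Csnk2b and Bag6, which every cell uses, and the microglial marker Aif1. Whether Fads2 belongs to such a stretch was not tested.

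The 3 elongases differed in their separation. Elovl5, which lengthens polyunsaturated chains (chromosome 9, 77917364 to 77984519, plus strand), had 80.3, 78.9 and 79.0 CPM in the CON group and 90.8, 92.8 and 88.2 CPM after sTREM-1. It was apart in all libraries, with a log2 fold change of 0.19 (standard error 0.03). Elovl6, which lengthens palmitate to stearate and so makes the substrate of Scd2, is on chromosome 3 from 129532355 to 129638495 (plus strand). It had 21.5, 23.5 and 20.8 CPM against 27.3, 24.9 and 25.1 CPM. The groups were apart by only 1.06-fold at their nearest libraries, and the log2 fold change of 0.23 (standard error 0.06) had the widest error of the 8 genes. Without sTREM-1 replicate 1, its highest library, the log2 fold change was 0.19 and Elovl6 was no longer called.

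Elovl1, which makes very long saturated and monounsaturated chains for sphingolipids, is on chromosome 4 from 118428093 to 118432953 (plus strand). It had 78.4, 76.4 and 75.5 CPM in the CON group and 77.4, 80.7 and 83.6 CPM after sTREM-1. The lowest sTREM-1 library lay inside the CON range, and the log2 fold change was 0.07 (standard error 0.04). Its last 53 bases overlap the opposite-strand gene Cdc20, which had 1880 to 2533 counts, and without knowledge of the strand setting reads of these bases cannot be told apart.

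Srebf1 had the largest difference after Scd2. It lies on chromosome 11 from 60199089 to 60222581 (minus strand) and had 65.2, 64.5 and 59.2 CPM in the CON group and 87.5, 87.8 and 85.9 CPM after sTREM-1. All sTREM-1 libraries were at least 1.32-fold above the highest CON library. The mean moved from 63.0 ± 3.26 to 87.1 ± 1.04 CPM (SD, n = 3), with a log2 fold change of 0.47 (standard error 0.04), or 1.38-fold. The count joins the transcripts that start at the SREBP-1a and SREBP-1c promoters, and it measures RNA, not the cut protein that acts in the nucleus. It shares 109 bases at its end with the opposite-strand gene Rai1.

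**Figure D2:**
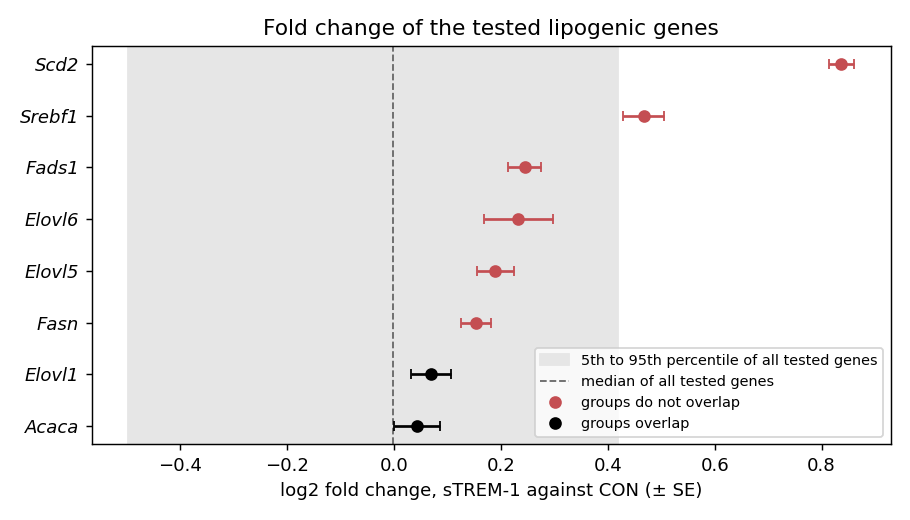
Log2 fold change (sTREM-1 against CON) with its standard error for the 8 tested genes, in red where no library of one group overlaps the other and in black where they overlap. The grey band spans the 5th to 95th percentile of all tested genes (-0.50 to 0.42), and only Scd2 at 0.84 and Srebf1 at 0.47 lie beyond it.

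The share of Scd2 in the set's counts, which are not scaled by length, was larger in the sTREM-1 libraries. Summed over the 10 genes the level was 1195, 1229 and 1207 CPM in the CON group and 1763, 1824 and 1781 CPM after sTREM-1. Scd2 made up 51.0%, 52.6% and 52.3% of these counts in the CON group and 62.4%, 63.5% and 62.6% after sTREM-1. Without Scd2 the other 9 genes summed to 576 to 585 CPM in the CON group and to 664 to 666 CPM after sTREM-1. The ratio of Scd2 to Fasn counts went from 3.62, 3.96 and 3.80 to 6.00, 6.37 and 5.92. Against the counts of its own known regulator Srebf1, Scd2 went from a range of 9.34 to 10.7 in the CON group to 12.6 to 13.2 after sTREM-1. Both ratios were higher in every sTREM-1 library than in any CON library. The ratio of Elovl6 to Elovl5, at 0.263 to 0.297 in the CON group and 0.268 to 0.301 after sTREM-1, overlapped between the groups, as did that of Fads1 to Fasn, at 0.655 to 0.692 and 0.69 to 0.74. These ratios come from the contrast on which the set was chosen and are not tested.

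To order the members by level, CPM was divided by the kilobases of merged exons. In the CON group Scd2 led at 115 ± 3.39 CPM per kilobase (SD, n = 3). Elovl1 followed at 28.2 ± 0.54, Fads1 at 23.2 ± 0.493, Elovl5 at 22.6 ± 0.22, Fasn at 15.1 ± 0.235 and Srebf1 at 11.2 ± 0.578 CPM per kilobase. Acaca at 3.67 ± 0.239 and Elovl6 at 3.41 ± 0.216 CPM per kilobase were the lowest of the 8 tested members, Scd1 stood at 0.0200 and Fads2 was listed at 0. Fads1 and Elovl5 overlapped across the CON libraries, and so did Acaca and Elovl6, so their order is not set by the CON libraries. The other neighbours were apart. After sTREM-1 Scd2 reached 206 ± 5.59 CPM per kilobase. In these libraries Fads1 (27.0 to 27.9) stood above Elovl5 (25.0 to 26.3), and Elovl6 (3.87 to 4.25) stood above Acaca (3.70 to 3.83). With the longest transcript as length the CON order was the same but single levels moved by over 1.5 times, for example Elovl1 to 42.4 and Acaca to 6.59 CPM per kilobase. On that length Acaca stood above Elovl6 after sTREM-1 too, at 6.79 and 4.33 CPM per kilobase, so their order depends on the gene length used.

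**Figure D3:**
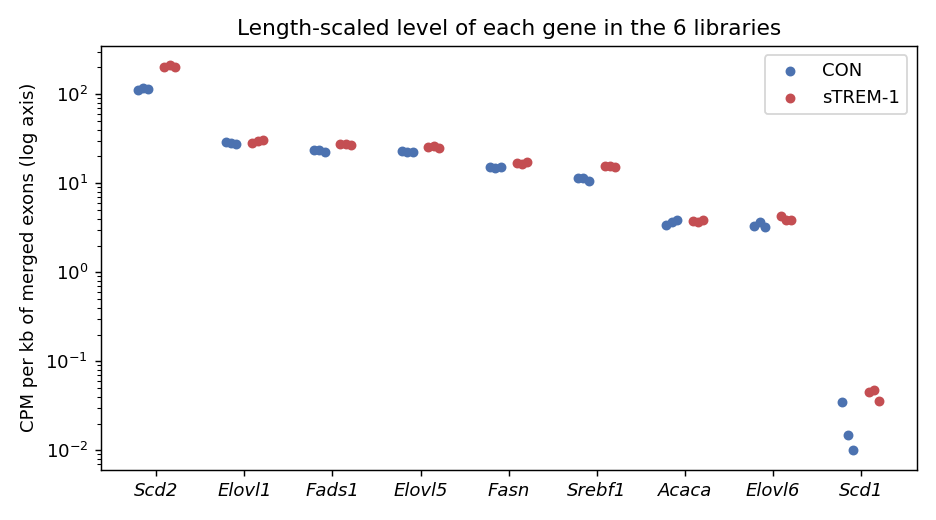
CPM per kilobase of merged exons (log axis) for each gene in the 3 CON (blue) and 3 sTREM-1 (red) libraries, in the order of the CON means; Fads2, listed at 0, cannot be drawn. Scd2 stands alone at 115 (CON) and 206 (sTREM-1), and Scd1 lies near the bottom at 0.0200 and 0.0429.

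The promoters of the members were read from RefSeq (build GRCm38.p6), which held 10 windows for 7 of the 10 genes, each running from 250 bases before a transcript start to 50 after it. Scd1, Scd2 and Fads1 were not among them. To show which known binding motifs lie at genes that were higher together, the 250 upstream bases are printed 5′ to 3′ for Fasn, Elovl5, Elovl6 and the start of Srebf1 that lies farthest inside the gene, with capitals marking matches to the motifs searched.
Fasn chr11:120824548-120824797 minus strand: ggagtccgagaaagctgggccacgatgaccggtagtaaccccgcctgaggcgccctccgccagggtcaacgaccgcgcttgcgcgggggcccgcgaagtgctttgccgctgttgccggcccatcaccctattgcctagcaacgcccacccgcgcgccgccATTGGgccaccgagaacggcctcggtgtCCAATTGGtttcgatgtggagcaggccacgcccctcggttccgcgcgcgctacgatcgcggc
Elovl5 chr9:77917115-77917364 plus strand: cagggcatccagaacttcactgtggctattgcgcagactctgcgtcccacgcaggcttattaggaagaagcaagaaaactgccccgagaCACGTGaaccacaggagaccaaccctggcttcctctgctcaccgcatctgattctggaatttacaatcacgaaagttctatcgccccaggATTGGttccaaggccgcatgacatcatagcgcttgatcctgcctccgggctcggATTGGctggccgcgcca
Elovl6 chr3:129532136-129532385 plus strand: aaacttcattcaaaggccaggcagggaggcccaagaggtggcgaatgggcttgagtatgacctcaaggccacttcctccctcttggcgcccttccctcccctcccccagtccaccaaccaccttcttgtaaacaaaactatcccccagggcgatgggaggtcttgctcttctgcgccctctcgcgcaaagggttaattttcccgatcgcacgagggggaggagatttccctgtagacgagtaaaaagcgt
Srebf1 chr11:60210472-60210721 minus strand: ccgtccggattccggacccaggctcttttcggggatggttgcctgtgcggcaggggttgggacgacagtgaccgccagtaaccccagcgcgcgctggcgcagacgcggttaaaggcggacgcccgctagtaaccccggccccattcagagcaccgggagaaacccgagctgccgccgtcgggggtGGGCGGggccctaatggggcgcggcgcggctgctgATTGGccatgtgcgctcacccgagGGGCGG
The motifs were searched on both strands as exact letters. They were a classical SREBP site (TCACNCCAC), the NF-Y box (CCAAT), the Sp1 box (GGGCGG), the palindromic E-box (CACGTG) and the LXR DR4 element. NF-Y and Sp1 are general factors that are known to work beside SREBP. The Fasn window held NF-Y boxes that began 90, 62 and 59 bases before the start, the last pair overlapping. Elovl5 held NF-Y boxes at 71 and 17 bases and an E-box at 161 bases, the printed Srebf1 window held an NF-Y box at 30 and Sp1 boxes at 65 and 6 bases, and Elovl6 held none of the motifs. Over all windows of the members, 5 of 10 held an NF-Y box, against 37.4% of all 32851 promoter windows, and 5 of 10 held an Sp1 box, against 35.7%. The E-box was in 1 of 10 (7.15% of all windows), the SREBP site in 0 of 10 (1.24%) and the exact LXR DR4 letters in 0 of 10 (0.0152%). Only 5 of all 32851 windows held those LXR letters. SREBP and LXR elements that differ from the letters given above were not searched. Whether a member promoter, including the printed Srebf1 window, holds such an SREBP or LXR element therefore cannot be read from this search. Elovl1, whose groups overlapped, held the most Sp1 boxes, 5 in 1 window and 2 in the other. A match is a run of letters and not a measured site, and a missing match says only that these letters are not in the window.

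The wider pathway was read from hand-made lists with the same fit across all genes. Beside the counts of each list stand the shares over all tested genes, 30.5% called, 16.5% as higher and 14.1% as lower. No list was tested against these shares. Upstream of Acaca, of 16 tested genes for acetyl-CoA supply, NADPH, accessory synthesis enzymes and the AMPK subunits that inhibit Acaca, 4 rose, 3 fell and 9 were not called. The median log2 fold change was -0.01. Enzymes that make cytosolic acetyl-CoA and NADPH were among those that rose. Acss2, which activates acetate, rose from 4.29 ± 0.485 to 7.28 ± 0.722 CPM (SD, n = 3; log2 fold change 0.76, edgeR adjusted p = 1.6e-05). Acly, which splits citrate, rose from 164 ± 2.66 to 210 ± 6.20 CPM (log2 fold change 0.36, edgeR adjusted p = 2.1e-11), and Me1, malic enzyme, from 148 ± 3.58 to 196 ± 5.02 CPM (0.40, edgeR adjusted p = 3.5e-12). Of the AMPK subunits, Prkaa2 fell from 142 to 122 CPM (-0.22, edgeR adjusted p = 1.3e-06) and Prkab1 from 47.7 to 41.4 CPM (-0.20, edgeR adjusted p = 0.00086), while Prkaa1, named after its values were seen, rose by 0.12 on the log2 scale (edgeR adjusted p = 0.0071). The subunits Prkab2 and Prkag1, also named after their values were seen, were not called (0.04 and 0.03, edgeR adjusted p = 0.68 and 0.69). Mid1ip1, an activator of Acaca, had 53.1 and 50.4 CPM and was not called (edgeR adjusted p = 0.24).

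Slc25a1, the mitochondrial citrate carrier, was the third gene called lower, but this rested on a single library. It had 92, 32 and 335 counts in the CON group and 32, 48 and 46 after sTREM-1, so the groups overlapped. Its log2 fold change was -1.92 (edgeR adjusted p = 0.001), and -0.61 without CON replicate 3 (edgeR adjusted p = 0.27). DESeq2 gave an adjusted p of 0.099. Neighbouring genes on chromosome 16 were also low, with 20 to 70 counts for Dgcr2 and 4 to 9 for Dgcr6.

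Of 14 tested genes for other desaturases, other elongases and their partners, 5 rose, 1 fell and 8 were not called (median log2 fold change 0.03). Those not called include the desaturases Fads6 and Degs1 and the elongases Elovl3 and Elovl7, named after their values were seen. Their log2 fold changes were 0.02, 0.03, -0.29 and 0.42 (edgeR adjusted p = 0.98, 0.42, 0.53 and 0.22). Cyb5a, cytochrome b5, which hands electrons to the desaturases, rose from 51.8 ± 2.16 to 79.4 ± 2.41 CPM (SD, n = 3; log2 fold change 0.62, edgeR adjusted p = 4.5e-13). The other cytochrome b5 gene of the list, Cyb5b, named after its values were seen, had 378 and 386 CPM and was not called (0.03, edgeR adjusted p = 0.35). Tecr, the trans-2-enoyl-CoA reductase of the elongation cycle, rose from 77.2 to 101 CPM (0.38, edgeR adjusted p = 6.9e-10). Of the 4 dehydratases of that cycle, Hacd4 rose from 36.9 to 49.0 CPM (0.41, edgeR adjusted p = 6.4e-08), whereas Hacd1, Hacd2 and Hacd3, named after their values were seen, were not called (log2 fold changes 0.01, -0.06 and 0.00, edgeR adjusted p = 0.94, 0.65 and 0.98). Cyb5r3, a reductase of cytochrome b5, and Hsd17b12, the ketoacyl reductase of elongation, both named after their values were seen, rose by 0.13 and 0.11 on the log2 scale. Hsd17b12 lost its call without CON replicate 1 (0.10) and without sTREM-1 replicate 1 (0.08). Cyb5r1 fell from 488 to 435 CPM (-0.17, edgeR adjusted p = 7.7e-07).

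Genes that activate, carry and store fatty acids moved in both directions. Of 16 tested genes for acyl-CoA activation and binding, 4 rose and 2 fell (median log2 fold change -0.03). Acsl5, an acyl-CoA synthetase, rose from 85.4 to 112 CPM (log2 fold change 0.39, edgeR adjusted p = 6.4e-11), Acot7 and Acsl3 rose by 0.18 and 0.16, and Acsl4, named after its values were seen, by 0.08, a call lost without CON replicate 3 (0.07) or sTREM-1 replicate 2 (0.06). The fatty acid carrier Fabp4 fell from 388 to 347 CPM (-0.16, edgeR adjusted p = 6.8e-06) and the transporter Slc27a1 from 482 to 457 CPM (-0.08, edgeR adjusted p = 0.0094), the latter not called without CON replicate 1 (-0.07). Of 20 tested genes of glycerolipid synthesis and lipid droplets, 9 rose and 3 fell (median 0.05). Lpin1, which makes diacylglycerol, rose from 27.0 to 35.4 CPM (0.39, edgeR adjusted p = 3.6e-06), and the lipases Pnpla2 and Lipe rose by 0.27 and 0.31. Lipe was not called without CON replicate 3 (0.27), sTREM-1 replicate 1 (0.26) or sTREM-1 replicate 3 (0.28). Plin2, the coat protein of lipid droplets, fell from 1330 to 1060 CPM (-0.33, edgeR adjusted p = 3.4e-13), and Dgat2, which makes triglyceride, from 18.2 to 14.0 CPM (-0.38, edgeR adjusted p = 0.00024). Lpcat1, which acylates lysophospholipids, fell from 37.2 to 31.6 CPM (-0.24, edgeR adjusted p = 0.00053).

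Of 24 tested genes on the list for SREBP-1 control, 5 rose, 3 fell and 16 were not called, a share of calls close to the 30.5% over all tested genes. Their median log2 fold change was 0.04. The hand-made list also holds Mlx, Lmf1 and Lpcat3, and a place on it is no evidence that a gene controls SREBP-1. Lpcat3 is also on the lists of glycerolipid synthesis and LXR targets and is counted as a rise in each. Srebf2, which encodes the paralogue SREBP-2, rose from 113 ± 3.03 to 153 ± 2.20 CPM (SD, n = 3; log2 fold change 0.44, edgeR adjusted p = 1.6e-12). Insig1, which holds SREBP in the endoplasmic reticulum and is itself an SREBP target, rose from 37.7 to 49.1 CPM (0.39, edgeR adjusted p = 2e-07). Nr1h2, the gene of LXR-beta, rose by 0.25 (edgeR adjusted p = 7.9e-05), and Mbtps1, a protease that cuts SREBP, and the lysophospholipid acyltransferase Lpcat3, both named after their values were seen, rose by 0.20 and 0.18. The NF-Y subunits Nfyb and Nfya fell by 0.30 and 0.16 on the log2 scale, and Rxra fell by 0.10, a call lost when any library except CON replicate 1 was left out (-0.06 to -0.10). The escort protein gene Scap (0.08, edgeR adjusted p = 0.29), Insig2 (0.02, edgeR adjusted p = 0.83) and Nr1h3, the gene of LXR-alpha (0.18, edgeR adjusted p = 0.17), were not called. Without sTREM-1 replicate 2, Scap was called at 0.15 (edgeR adjusted p = 0.036).

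Of the neighbouring pathways, sterol synthesis and uptake moved most in 1 direction. Of its 21 tested genes, which are targets of SREBP-2, 19 rose and 0 fell, and the median log2 fold change was 0.44. The sterol carrier Stard4 rose from 28.1 to 48.0 CPM (0.77, edgeR adjusted p = 1.9e-13) and Acat2, which condenses acetyl-CoA at the start of sterol synthesis, from 4.05 to 7.43 CPM (0.88, edgeR adjusted p = 2.4e-06). Of the 2 that were not called, Tm7sf2 and Sc5d, named after their values were seen, the log2 fold changes were 0.16 and 0.08. The sterol list was known from earlier results of these libraries to be higher, and it is no independent support for the members.

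Of 10 tested targets of LXR and genes of cholesterol efflux, 5 rose and 1 fell, with a median log2 fold change of 0.18. Lpl, lipoprotein lipase, rose from 2610 to 3350 CPM (0.36, edgeR adjusted p = 1.3e-13), the exporter Abca1 by 0.20 and Apoe by 0.19, and Lpcat3 and Npc2, named after their values were seen, by 0.18 each. Npc1 fell from 508 to 456 CPM (-0.16, edgeR adjusted p = 2.4e-06). The LXR targets Abcg1 (0.01, edgeR adjusted p = 0.9) and Mylip (edgeR adjusted p = 0.99) had nearly equal means in the groups. Of 22 tested genes of fatty acid oxidation, 5 rose, 2 fell and 15 were not called, a share of calls close to the 30.5% over all tested genes. Their median log2 fold change was 0.05. Acaa1a, Acaa2 and Hadh, which act late in beta-oxidation, rose by 0.35, 0.33 and 0.26, and Etfdh, named after its values were seen, by 0.18. Ppargc1b fell from 28.0 to 24.2 CPM (-0.21, edgeR adjusted p = 0.006). Acadvl, also named after its values were seen, had 80, 46 and 216 counts in the CON group and 32, 81 and 32 after sTREM-1. Its log2 fold change of -1.29 (edgeR adjusted p = 0.0088) was -0.44 without CON replicate 3 (edgeR adjusted p = 0.45), -1.03 without sTREM-1 replicate 1 and -1.11 without sTREM-1 replicate 3 (edgeR adjusted p = 0.055 and 0.059).

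**Figure D4:**
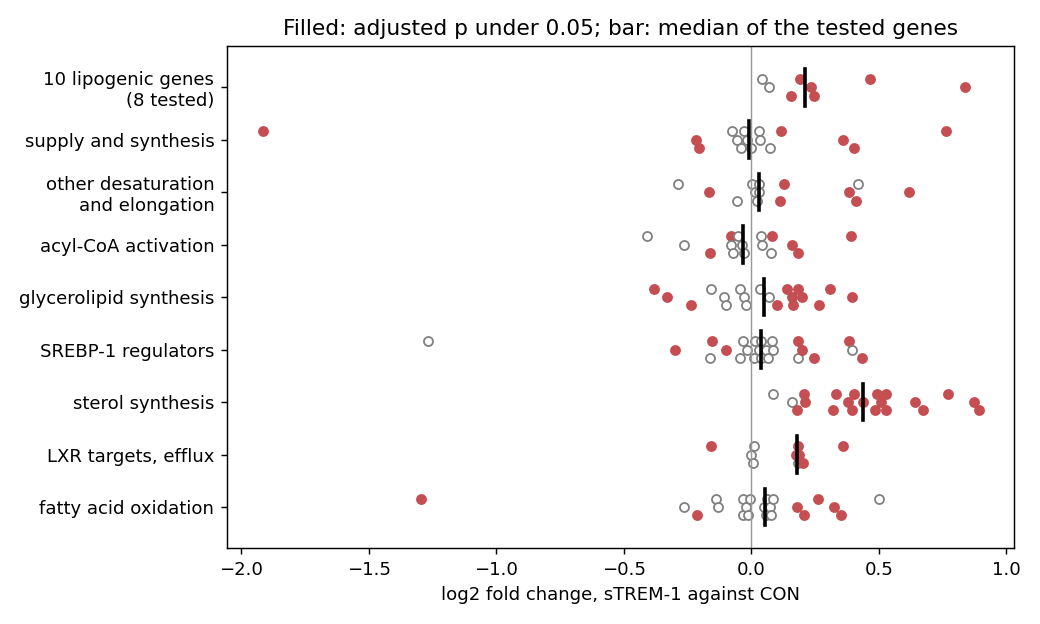
Log2 fold change (sTREM-1 against CON) of each tested gene in the 10-gene set and in the 8 wider lists, filled where the adjusted p was under 0.05, with a bar at the median of each list. The sterol list has its median at 0.44 and 19 of 21 genes filled on the right, the 10-gene set has its median at 0.21, and the other lists have medians between -0.03 and 0.18 with genes on both sides of 0.

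The genes whose profile over the 6 libraries was most like that of Scd2 were found by the Euclidean distance of centred log2 CPM among 9053 genes of at least 10 CPM on average. The 4 nearest were Stard4 (distance 0.0957), Selenbp1 (0.118), Igsf6 (0.134) and Ccnb2 (0.151), with log2 fold changes of 0.77, 0.82, 0.75 and 0.75. The nearest member was Srebf1 at rank 114 (distance 0.475), followed by Fads1 at rank 664. The distance mostly reflects the size of the difference between the groups, since 3 libraries of each group set the profile.

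Markers of other cell types that use these genes were low except Fabp4. Only 2 oligodendrocyte, 1 astrocyte and 1 adipocyte marker passed the filter on low counts, and none of these was called higher. The 6 neuron and 6 hepatocyte markers were not tested, so none of them could be called. The 8 oligodendrocyte markers summed to 7.34 to 7.96 CPM in the CON group and to 5.63 to 6.70 CPM after sTREM-1, none of the 2 tested was called, and Mog and Olig1 were at 0 throughout. Of the adipocyte markers all except Fabp4, which macrophages also express, had at most 2 counts per library, and all 6 hepatocyte markers were at 0. For these markers too, a listed 0 cannot be read as absent expression. The summed levels of 6 astrocyte markers (0.366 to 1.25 CPM and 0.633 to 1.26 CPM) and 6 neuron markers (0.147 to 0.341 CPM and 0.0469 to 0.328 CPM) overlapped between the groups.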

How the data were processed

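The authors sequenced 3 CON and 3 sTREM-1 wells of BV2 cells. Per the submitters' processing notes HISAT2 2.0.4 was used, and the builds listed are the human hg19 and GRCh38, although the gene symbols are those of mouse. The methods name RSEM and edgeR and give n = 4, while the labels and the table hold 3 libraries per group. The deposited values are raw counts for each symbol, as whole numbers. Strand setting and annotation are not given in the sources used here.

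Low genes were removed by filterByExpr with its minimum count of 10, TMM factors were computed, and the groups were compared by quasi-likelihood F tests (edgeR 4.0.16, R 4.3.3), with Benjamini-Hochberg adjustment over all 14120 tested genes and a threshold of 0.05. The standard error is the log2 fold change over the square root of the F statistic. Log2 CPM used a prior count of 2. Coordinates, exon lengths and shared sequence come from GENCODE M21. The code was tested on simulated counts. The members and the lists were chosen with earlier results of these data known. Named besides the members were, per list, at most 3 genes per direction with the largest change among those called, apart between groups and of at least 1 CPM, some fixed regulators, and the 5 nearest profiles to Scd2. A few of these genes are not reported here. Alternatives were RLE size factors, other count filters, DESeq2 1.42.0, a replicate block, each library left out, a 1.5-fold minimum and another gene length. Protein sequences were not used here.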

Additional observations from a re-analysis of the deposited data

How the results depend on the processing

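Under RLE size factors, both other filters on low counts, DESeq2 and the replicate block, 6 members were called and all tested members had a positive log2 fold change. Over all genes, 4027 (DESeq2) to 4613 (replicate block) were called under these settings. All settings reuse the 6 libraries on which the set was chosen, so the repeated member calls are no independent support. Leaving out 1 library at a time gave 5 to 6 called members, with Elovl6 lost without sTREM-1 replicate 1, the sign of Acaca turned without CON replicate 1, and 3608 to 3863 called genes over all. A minimum of 1.5-fold beside the adjusted p moved every count: 301 genes were called in all, 1 member (Scd2), 2 genes of supply and synthesis, 1 other gene of desaturation and elongation, 0 of acyl-CoA activation, 0 of glycerolipid synthesis, 0 of the SREBP-1 regulators, 5 of sterol synthesis, 0 of the LXR targets and 1 of fatty acid oxidation. These counts are smaller by construction. The supply genes were Acss2 and Slc25a1, and the gene of fatty acid oxidation was Acadvl. Slc25a1 and Acadvl were called lower, had overlapping groups and lost their calls without CON replicate 3.

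The labels number the wells of both groups, but deviations of same-numbered libraries correlated at -0.0184, -0.0335 and -0.0145, under the limit of 0.1, so the numbers were not taken as pairs. With the replicate block 4613 genes were called, against 4312 without it. No scaling moved the median of all genes by 0.1. Each scaling used centres most genes near no change, so this cannot show whether the scaling is right. Scd1 (2 to 10 counts) is limited by depth, and genes listed at 0 may be missing for reasons that were not tested. The planned comparison of protein sequences was not run.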
